A study of Mus musculus with 18 samples.

Results

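The genes described here are 10 members of the FoxO and muscle atrophy programme: the transcription factors Foxo1, Foxo3 and Foxo4, the ubiquitin ligases Fbxo32 (atrogin-1), Trim63 (MuRF1), Trim54 (MuRF3), Trim55 (MuRF2) and Fbxo30, the transcription factor Klf15, and Ddit4l, a relative of the mTORC1 inhibitor Ddit4. They were chosen by symbol and make up 10 of the 55450 gene IDs in the count table, and all 10 were found there. Klf15 and Ddit4l were included because they had been named for opposite responses in the knockout. Their levels in the control and the knockout line are therefore described with no test. Polyadenylated RNA was sequenced from C2C12, an established line of mouse myoblasts that can fuse into myotubes. The study asked what the amount of noncoding RNA from the imprinted Dlk1-Dio3 cluster does to the state of muscle cells and to their differentiation.

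Each of 3 lines was grown as myoblasts in serum-rich medium and as myotubes on day 3 in low horse serum, with 3 libraries (A, B and C) in each of the 6 groups. The control line, px in the titles, was a sorted population that had received the pX458 vector alone. The overexpressor (2-4) and the knockout (2-7) were each 1 clone that had received a pair of Cas9 and guide RNA constructs against the proximal regulatory region of Meg3, a noncoding RNA of the cluster. All lines went through transfection and sorting for EGFP, and the labels describe the control as a population and the edited lines as clones, so genotype and clone cannot be told apart. The labels name triplicates and do not say that they were separate cultures, so p-values measure only the spread between these libraries, which may be technical.

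Meg3 had 0 counts in every control and every knockout library and 133 ± 22.9 CPM (counts as parts of the TMM-scaled library size; SD, n = 3) in overexpressor myoblasts and 92.6 ± 13.4 CPM in overexpressor myotubes. Meg3 therefore checks the label of the overexpressor only, and every direction given for the knockout rests on its label. Library totals ran from 41544358 to 79140702 counts. The muscle lineage markers (Des, Myod1, Myf5, Pax7, Cdh15 and Itga7) were detected in all 6 groups, with summed levels from 1709 to 12140 CPM. Of the 4 macrophage and blood markers the summed level stayed at or under 1.85 CPM, and of the 4 endothelial markers at or under 0.669 CPM. Overexpressor myotube library C stood apart from libraries A and B, with a chi-square per degree of freedom of 115 and 110 against at most 52.8 for any other pair of replicates, and results that rest on it are given without it.

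FoxO factors are kept in the cytoplasm when Akt, the kinase downstream of insulin and IGF1, phosphorylates them. When Akt signalling falls they enter the nucleus and switch on genes of proteasomal and autophagic breakdown, Fbxo32 and Trim63 among them. The MuRF proteins sit on the sarcomere of differentiated muscle and ubiquitinate its proteins, while Klf15 acts with the glucocorticoid receptor on atrophy and amino acid catabolism genes.

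The 250 bases before the RefSeq start site (GRCm38.p6) were searched on both strands for the FoxO core GTAAACA, the E-box CAGCTG of myogenic factors, the MEF2 motif (CTA and TAG with 4 free bases between them) and the full glucocorticoid response element (AGAACA and TGTTCT with 3 free bases between them). Of the 10 members, 7 had an entry in the RefSeq promoter table used here, and Foxo4, Fbxo32 and Trim55 had none. The promoters of Trim63 and Trim54 are shown because both genes rose with differentiation and held motif matches, and that of Klf15 because its counts came almost wholly from 1 group. Capitals mark the matches, which do not overlap, and each run reads 5′ to 3′ on the plus strand, which is the strand of all 3 genes. The windows are chr4:134314870-134315119 for Trim63, chr5:31116362-31116611 for Trim54 and chr6:90462326-90462575 for Klf15.
Trim63: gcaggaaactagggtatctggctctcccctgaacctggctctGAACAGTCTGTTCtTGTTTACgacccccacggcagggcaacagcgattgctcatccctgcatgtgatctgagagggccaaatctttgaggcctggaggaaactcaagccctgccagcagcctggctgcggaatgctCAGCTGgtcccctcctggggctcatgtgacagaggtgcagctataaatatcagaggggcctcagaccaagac
Trim54: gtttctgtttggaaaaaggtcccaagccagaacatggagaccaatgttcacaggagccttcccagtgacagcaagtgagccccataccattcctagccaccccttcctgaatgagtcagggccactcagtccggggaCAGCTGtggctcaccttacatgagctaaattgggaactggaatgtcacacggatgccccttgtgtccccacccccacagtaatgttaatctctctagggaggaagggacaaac
Klf15: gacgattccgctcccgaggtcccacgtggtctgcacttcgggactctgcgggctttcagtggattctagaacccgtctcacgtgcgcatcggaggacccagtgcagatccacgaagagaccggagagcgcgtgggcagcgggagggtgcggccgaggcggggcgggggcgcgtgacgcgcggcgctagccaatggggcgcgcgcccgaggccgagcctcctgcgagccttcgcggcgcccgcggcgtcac
The Trim63 window held a FoxO core on the minus strand (TGTTTAC as read here, first base at position -194 from the start), an E-box at position -72 and, at position -208, GAACAGTCTGTTC, which fits a shorter form of the glucocorticoid element (GAACA and TGTTC with 3 free bases between them). The shorter element was added after the Trim63 promoter had been read. The Trim54 window held an E-box at position -113. No match was found in the windows of Klf15, Ddit4l, Foxo1, Foxo3 and Fbxo30. Among 32851 RefSeq promoters of this length, 3.17% held the FoxO core, 13.0% the E-box, 3.2% the MEF2 motif, 0.00913% the full glucocorticoid element and 0.0396% its shorter form. A match of letters is a description, not a binding site.

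The 3 MuRF genes rose with differentiation in every line, and they were higher in both edited lines than in the control at both stages. Foxo4 rose with differentiation in both edited lines, whereas Foxo3 rose in the control and the knockout and did not pass the test in the overexpressor. Fbxo32 fell with differentiation in the control and rose in the overexpressor. Tests are edgeR quasi-likelihood tests of raw counts over 17912 genes with Benjamini-Hochberg adjustment, at a threshold of 0.05, and a call is a gene past it. A fold change is given on the log2 scale with its standard error (SE).

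**Figure D1:**
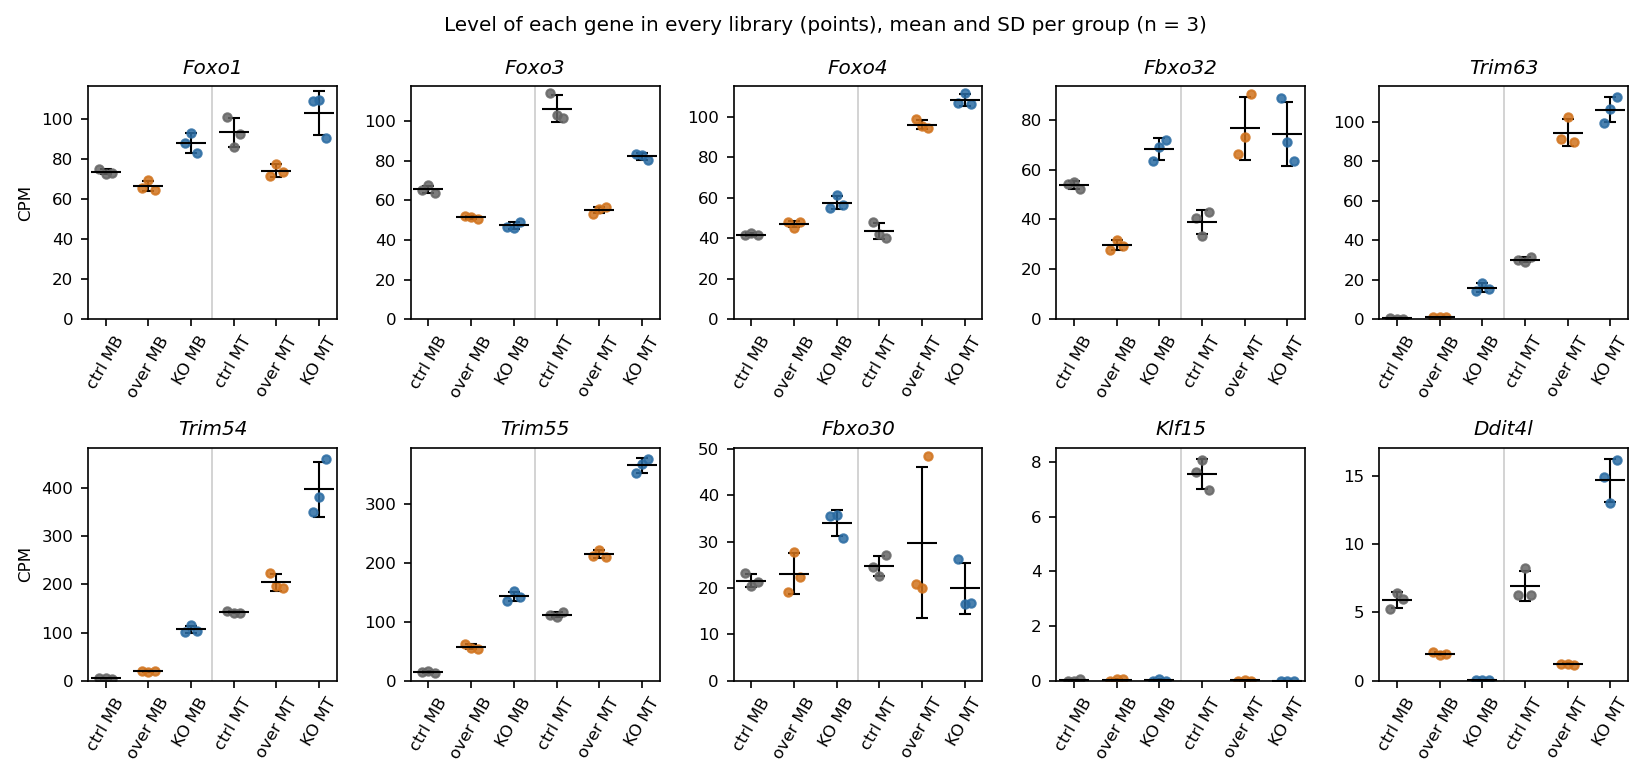
Level of each of the 10 genes in CPM, 1 point per library, by line (colour) and stage (MB myoblasts, MT myotubes), with a bar at the mean of 3 libraries. The 3 MuRF genes are lowest in control myoblasts, Klf15 reaches 6.98 to 8.08 CPM in control myotubes alone, and Ddit4l is at 0.0182 to 0.0645 CPM in knockout myoblasts.

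Counts are given over the 8 genes other than Klf15 and Ddit4l. All 8 passed the filter on low counts. With differentiation, 5 of the 8 were higher and 1 lower in the control, where 62.8% of all genes tested were called (33.9% higher and 28.8% lower). In the overexpressor 5 were higher and 0 lower, against 62.8% of all genes called (29.8% higher and 33% lower). In the knockout 6 were higher and 1 lower, against 65.4% (29.8% higher and 35.6% lower). The 7 calls in the knockout became 5 or 6 when any 1 library of that comparison was left out. The median log2 fold change of the 8 genes was 0.52, 1.20 and 0.85 in the control, the overexpressor and the knockout, against 0.07, -0.02 and -0.08 over all genes. With so many genes called, the number of calls among 8 genes is close to the background, and their direction and size carry the description.

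Between lines, 4 of the 8 genes were higher and 2 lower in overexpressor than in control myoblasts (40.4% of all genes called, 20.7% higher and 19.7% lower), and 6 were higher and 1 lower in knockout than in control myoblasts (53% called, 26.4% higher and 26.6% lower). In myotubes, 5 were higher and 2 lower in the overexpressor than in the control (57.1% called, 26.2% higher and 30.9% lower), and 5 were higher and 1 lower in the knockout than in the control (68% called, 31% higher and 37% lower). Against the knockout, the overexpressor had 0 of the 8 higher and 6 lower in myoblasts (52.6% called, 25.7% higher and 26.9% lower) and 0 higher and 5 lower in myotubes (59.7% called, 30.6% higher and 29.1% lower). The response of the overexpressor to differentiation differed from that of the control in 5 of the 8 genes. The difference, edited line minus control, was positive in 2 and negative in 3 (39% of all genes called, 16.6% higher and 22.3% lower). The knockout response also differed in 5, with 2 differences positive and 3 negative (50.1% called, 20.2% higher and 29.9% lower). A positive difference need not be a larger response. Fbxo32 had a positive difference in both edited lines. Its log2 fold change with differentiation was -0.47 for control and 1.37 for overexpressor cells. For knockout cells it was 0.12, which did not pass the test. Both comparisons with the control use the same control libraries, so their calls are not independent.

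**Figure D2:**
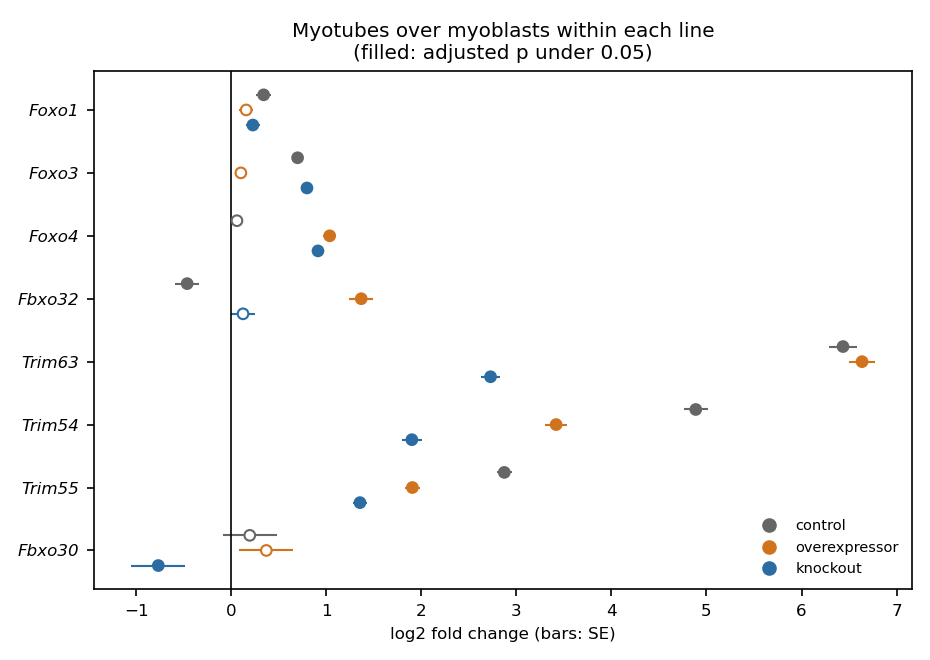
Log2 fold change of myotubes over myoblasts in each of the 3 lines, with bars of 1 SE, for the 8 genes tested in every comparison. Trim63 lies at 6.44, 6.64 and 2.73 in control, overexpressor and knockout, and Foxo4 lies at 0.06 in the control and near 1 in both edited lines.

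Foxo3 (ENSMUSG00000048756, GRCm38 chromosome 10, 42181841 to 42276755, minus strand), the FoxO factor best known for driving both atrophy ligases and autophagy in muscle, was highest in control myotubes. Its levels in myoblast libraries A, B and C were 65.5, 67.6 and 63.8 CPM in the control, 52.3, 51.5 and 50.6 CPM in the overexpressor and 46.8, 46.1 and 49.3 CPM in the knockout. In myotubes they were 114.4, 103.1 and 101.7 CPM in the control, 53.3, 55.7 and 56.6 CPM in the overexpressor and 83.4, 83.2 and 80.3 CPM in the knockout. Every control library lay above every library of the edited lines at the same stage, and no 2 neighbouring groups in the order of the 6 means overlapped. Differentiation raised Foxo3 by 0.70 (SE 0.06, adjusted p = 4.84e-09) in the control and by 0.80 (SE 0.06, adjusted p = 1.57e-09) in the knockout, while the overexpressor gave 0.10 (SE 0.06, adjusted p = 0.137). The response in the overexpressor was smaller than in the control by a tested difference of -0.60 (SE 0.08, adjusted p = 9.63e-06), and that in the knockout differed by 0.10 (SE 0.08, adjusted p = 0.327), which passed the threshold with DESeq2 size factors (0.25, adjusted p = 0.0218). Under DESeq2 size factors the overexpressor's own response also passed, at 0.18 (adjusted p = 0.0145). Against control myotubes Foxo3 was lower by a log2 fold change of -0.95 for the overexpressor (SE 0.06, adjusted p = 1.03e-10) and -0.37 for the knockout (SE 0.06, adjusted p = 1.54e-05).

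Foxo4 (ENSMUSG00000042903, chromosome X, 101254528 to 101260873, plus strand) was raised in myotubes of the edited lines and not in those of the control. The myoblast libraries held 41.4, 42.4 and 41.4 CPM in the control, 47.8, 45.01 and 47.9 CPM in the overexpressor and 55.0, 61.1 and 56.5 CPM in the knockout. The myotube libraries held 48.0, 42.1 and 40.3 CPM in the control, 98.6, 95.2 and 94.5 CPM in the overexpressor and 106.9, 111.5 and 106.3 CPM in the knockout. Control myotubes overlapped control myoblasts, and the myotubes of both edited lines lay above every other group. The log2 fold change with differentiation was 0.06 in the control (SE 0.07, adjusted p = 0.452), 1.03 in the overexpressor (SE 0.07, adjusted p = 1.24e-10) and 0.91 in the knockout (SE 0.07, adjusted p = 1.44e-09). The control value was -0.19 (adjusted p = 0.0149) when libraries were scaled by their totals, so its direction depends on the scaling. The response exceeded that of the control by 0.98 in the overexpressor (SE 0.09, adjusted p = 1.31e-07) and 0.85 in the knockout (SE 0.09, adjusted p = 5.92e-07). Foxo4 was 2.21-fold higher in overexpressor and 2.49-fold higher in knockout than in control myotubes (adjusted p = 5.24e-11 and 6.78e-12). The smaller difference of 0.17 between overexpressor and control myoblasts (adjusted p = 0.0488) was lost without any 1 of control libraries A, B and C or overexpressor libraries A and C (adjusted p from 0.0848 to 0.133), and the call held in 1 of 12 alternatives. The difference of -0.17 between overexpressor and knockout myotubes (adjusted p = 0.0295) was called in 6 of 12, and was lost without overexpressor library B or C or knockout library B (adjusted p = 0.0768, 0.15 and 0.107).

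Foxo1 (ENSMUSG00000044167, chromosome 3, 52268336 to 52353221, plus strand), which restrains myoblast differentiation as well as driving atrophy genes, had the narrowest range of group means of the 3 FoxO factors. Its group means ran from 66.6 ± 2.46 CPM in overexpressor myoblasts to 103 ± 10.9 CPM in knockout myotubes (SD, n = 3), and the 2 highest groups, knockout and control myotubes, overlapped. Differentiation raised it by 0.34 in the control (SE 0.08, adjusted p = 8.14e-04), a call lost with scaling by library totals (0.10, adjusted p = 0.324). In the overexpressor the value was 0.16 (adjusted p = 0.0857). That value passed without overexpressor myotube library C, at 0.21 (adjusted p = 0.0361). The increase of 0.23 in the knockout (adjusted p = 0.0151) was lost without knockout myoblast library C (0.19, adjusted p = 0.0762) or knockout myotube library A or B (adjusted p = 0.062 and 0.0799), and with scaling by library totals (0.06, adjusted p = 0.541). Foxo1 was lower in overexpressor than in control myotubes (-0.33, SE 0.08, adjusted p = 0.00113), a call lost with scaling by library totals (-0.18, adjusted p = 0.0674). It was higher in knockout than in control myoblasts (0.26, SE 0.08, adjusted p = 0.00861), which was lost without knockout library B (0.21, adjusted p = 0.0505). An antisense gene, Gm20402, overlaps an exon of Foxo1, and whether the counting used strand is not given in the sources used here, so reads of the pair cannot be told apart.

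Per kilobase of exon, which allows levels of different genes to be compared, the makeup of the 3 FoxO transcripts shifted between the lines. Foxo4 made up 41.1 ± 0.38% of their summed CPM per kilobase in control myoblasts and 33.4 ± 0.89% in control myotubes, and 63.5 ± 1.26% in overexpressor and 57.7 ± 1.34% in knockout myotubes (SD, n = 3). Of the 3, Foxo3 held the largest share in control myotubes at 37.7 ± 0.474%, and held 16.8 ± 0.605% and 20.2 ± 0.416% in overexpressor and knockout myotubes. The summed level rose from 29.2 to 37.3 CPM per kilobase between control myoblasts and myotubes, and stood at 43.4 in overexpressor and 53.8 in knockout myotubes. These shares leave out Foxo6, the remaining family member, which held 22.7 CPM per kilobase in control myotubes against 14.05 for Foxo3. Foxo6 rose with differentiation in all 3 lines, by 2.43, 1.88 and 1.46 in the control, the overexpressor and the knockout (adjusted p = 1.05e-12, 2.65e-11 and 1.61e-09).

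**Figure D3:**
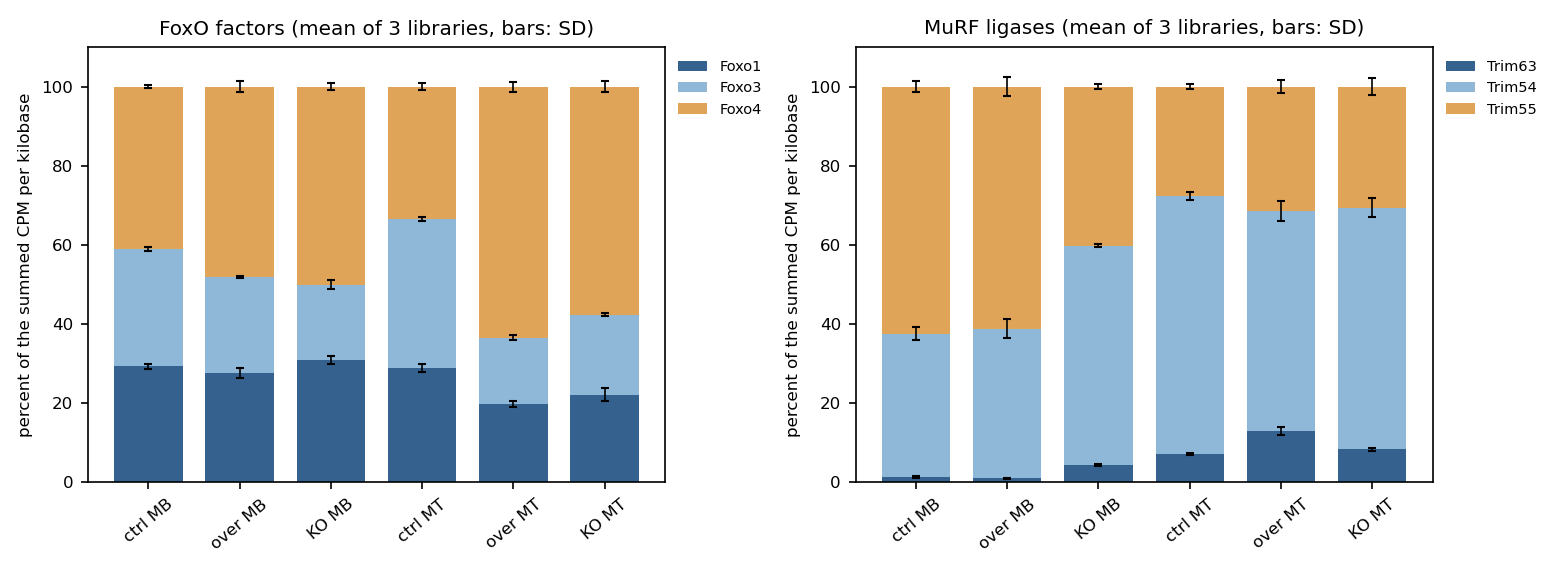
Share, in percent, of each gene in the summed CPM per kilobase of the 3 FoxO genes and of the 3 MuRF genes, as stacked means of 3 libraries per group (MB myoblasts, MT myotubes), with each gene's SD drawn at the top of its segment. Foxo4 holds 63.5% and 57.7% of the FoxO sum in overexpressor and knockout myotubes against 33.4% in control myotubes, and Trim55 falls from 62.5% of the MuRF sum in control myoblasts to 27.7% in control myotubes.

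Trim63 (ENSMUSG00000028834, chromosome 4, 134315120 to 134329629, plus strand), whose promoter is printed above and whose protein ubiquitinates myosin and other thick filament proteins, had the largest differentiation response of the 8 genes in every line. Myoblast libraries held 23, 17 and 12 counts in the control (0.431, 0.327 and 0.267 CPM), 43, 41 and 48 counts in the overexpressor (0.858, 0.884 and 1.11 CPM), and 14.4, 18.5 and 15.1 CPM in the knockout. Myotube libraries held 29.8, 29.0 and 31.5 CPM in the control, 91.3, 102.3 and 89.8 CPM in the overexpressor and 99.4, 106.4 and 112.2 CPM in the knockout. The 3 lines did not overlap as myoblasts, and as myotubes only the overexpressor and the knockout overlapped. The log2 fold change with differentiation was 6.44 in the control (SE 0.15, adjusted p = 3.49e-16), 6.64 in the overexpressor (SE 0.13, adjusted p = 1.05e-16) and 2.73 in the knockout (SE 0.10, adjusted p = 8.96e-13). The response of the knockout was smaller than that of the control by a tested difference of -3.71 (SE 0.18, adjusted p = 3.06e-11), and that of the overexpressor differed by 0.20 (SE 0.23, adjusted p = 0.548). Knockout myoblasts stood 5.53 above control myoblasts on the log2 scale (SE 0.15, adjusted p = 3.06e-15). Overexpressor and knockout myotubes stood 1.65 and 1.82 above control myotubes (SE 0.10 for both, adjusted p = 8.84e-11 and 2.16e-11).

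Trim54 (ENSMUSG00000062077, chromosome 5, 31116712 to 31137630, plus strand), which binds microtubules and the sarcomere and whose promoter is also printed above, had the same order of groups. Its myoblast levels were 4.63, 5.67 and 4.08 CPM in the control, 19.3, 17.7 and 20.4 CPM in the overexpressor and 101.6, 114.7 and 103.2 CPM in the knockout. Its myotube levels were 145.1, 140.3 and 141.1 CPM in the control, 224.1, 195.8 and 193.4 CPM in the overexpressor and 349.6, 380.8 and 461.6 CPM in the knockout. No 2 of the 6 groups overlapped. The differentiation response was 4.89, 3.42 and 1.90 in the control, the overexpressor and the knockout (SE 0.13, 0.11 and 0.11), and it was smaller than in the control by -1.47 in the overexpressor (adjusted p = 5.47e-07) and -2.99 in the knockout (adjusted p = 5.67e-11). The antisense gene Gm15469 overlaps an exon of Trim54, with the limit on strand given for Foxo1.

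Trim55 (ENSMUSG00000060913, chromosome 3, 19644474 to 19692421, plus strand), a MuRF that associates with titin and microtubules early in sarcomere assembly, was the one MuRF gene with more RNA in knockout myoblasts than in control myotubes. Its myoblast levels were 15.5, 16.8 and 13.5 CPM in the control, 62.1, 55.4 and 54.5 CPM in the overexpressor and 135.5, 151.9 and 141.8 CPM in the knockout. Its myotube levels were 111.8, 107.4 and 116.1 CPM in the control, 212.4, 222.8 and 209.4 CPM in the overexpressor and 352.4, 367.9 and 376.6 CPM in the knockout. Again no 2 groups overlapped. The differentiation response of the control was 2.87, that of the overexpressor 1.91 and that of the knockout 1.35 (SE 0.08, 0.08 and 0.07), smaller than in the control by -0.97 and -1.52 (adjusted p = 7.29e-07 and 1.88e-09).

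**Figure D4:**
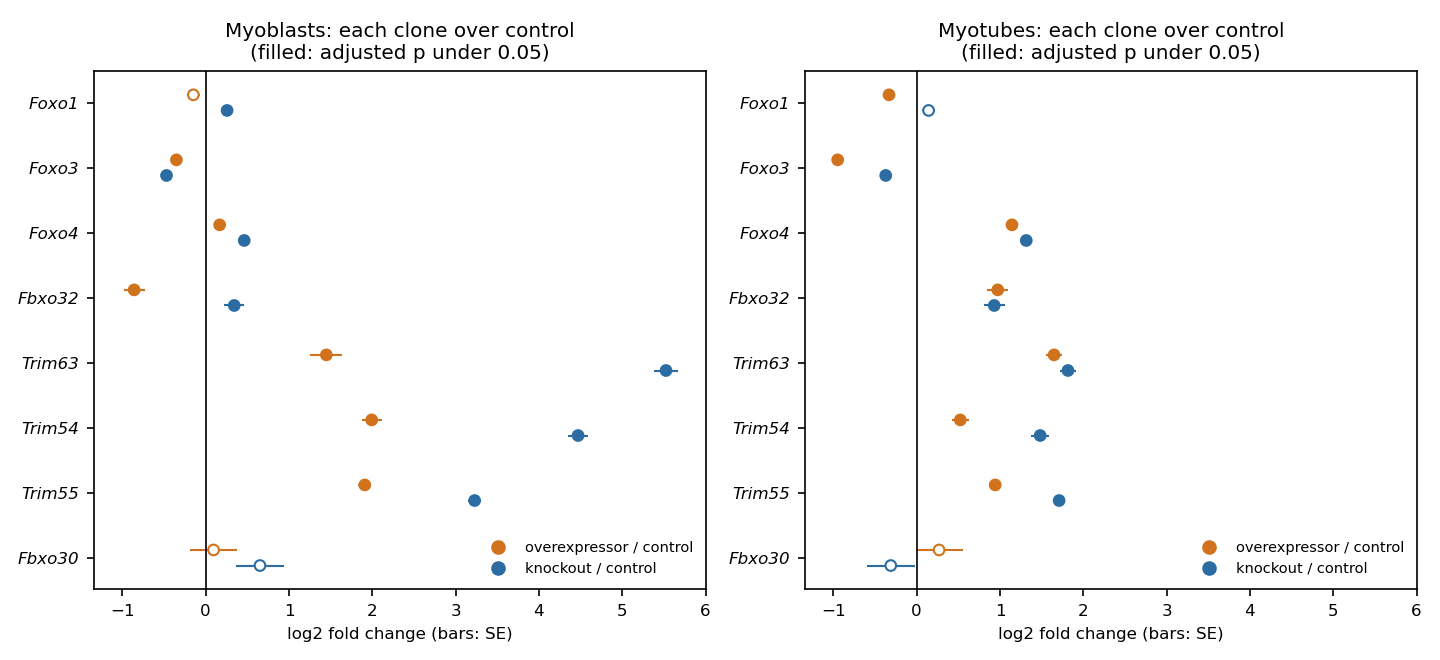
Log2 fold change of the overexpressor and of the knockout over the control line, in myoblasts and in myotubes, with bars of 1 SE, for the 8 tested genes. The 3 MuRF genes lie above 0 in all 4 comparisons, furthest in knockout myoblasts (Trim63 5.53, Trim54 4.47, Trim55 3.23), while Foxo3 lies below 0 in all 4.

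Per kilobase, the 3 MuRF genes together measured 9.19 ± 1.18 CPM per kilobase in myoblasts of the control, 35.2 ± 1.81 in those of the overexpressor and 133.6 ± 8.76 in those of the knockout, and 151.6 ± 2.93, 256.4 ± 11.5 and 451.5 ± 46.7 in the corresponding myotubes (SD, n = 3). Trim63 was the smallest part of this sum in every group, from 0.952% in overexpressor myoblasts to 13.0% in overexpressor myotubes. Trim55 held 62.5 ± 1.45% in control myoblasts and 27.7 ± 0.711% in control myotubes, where Trim54 held 65.3 ± 0.935%. As a sum, the 8 markers of differentiated muscle (Myog, Mymk, Myh3, Ckm, Acta1, Tnnt3, Actn2 and Ttn) had the same order of group means as the MuRF sum. Their summed level was 253.8 to 386.9 CPM in myoblasts of the control, 483.7 to 770.7 in those of the overexpressor and 9494 to 12110 in those of the knockout, and 14300 to 14800, 22500 to 23940 and 30560 to 36150 CPM in the myotubes of the same lines. None of the 8 was at 0 in any group. Single markers could depart from the order of the sum. Ckm held 282.8 CPM in knockout myoblasts and 220.7 CPM in control myotubes. Myog did not pass the test between overexpressor and control myotubes (0.10, adjusted p = 0.559). In bulk RNA, more differentiated cells and more RNA per cell cannot be told apart, and the part of the markers in the MuRF differences was not tested.

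**Figure D5:**
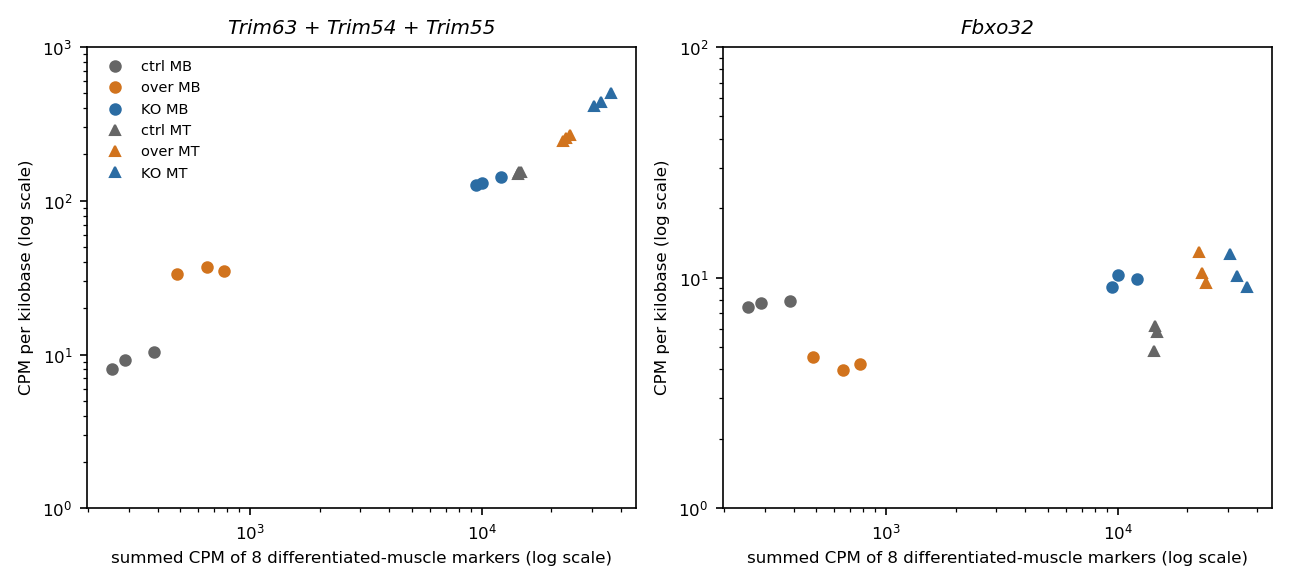
Summed level of the 3 MuRF genes (left) and level of Fbxo32 (right) in CPM per kilobase against the summed CPM of 8 differentiated muscle markers on log axes, 1 point per library. The MuRF sum and the marker sum have the same order of group means, whereas Fbxo32 is lowest in overexpressor myoblasts and lies between 4.79 and 6.17 CPM per kilobase in control myotubes.

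Fbxo32 (ENSMUSG00000022358, chromosome 15, 58175879 to 58214932, minus strand) encodes atrogin-1, the F-box subunit of an SCF ligase that targets MyoD and the initiation factor subunit eIF3f. In myoblast libraries it held 54.2, 55.0 and 52.2 CPM in the control, 27.8, 31.7 and 29.5 CPM in the overexpressor and 63.5, 69.2 and 72.0 CPM in the knockout. In myotubes it held 40.4, 33.4 and 43.0 CPM in the control, 66.0, 73.2 and 90.4 CPM in the overexpressor and 88.5, 71.0 and 63.3 CPM in the knockout. Overexpressor myoblasts were the lowest group and overlapped no other, control myotubes were next, and the myotubes of both edited lines overlapped each other. Differentiation lowered Fbxo32 in the control (-0.47, SE 0.12, adjusted p = 0.00326) and raised it in the overexpressor (1.37, SE 0.13, adjusted p = 2.7e-08), and the knockout gave 0.12 (SE 0.12, adjusted p = 0.392). The responses differed from that of the control by 1.83 in the overexpressor (SE 0.18, adjusted p = 1.89e-07) and 0.59 in the knockout (SE 0.17, adjusted p = 0.00985). Against the control, the overexpressor was lower in myoblasts (-0.86, SE 0.13, adjusted p = 2.15e-05) and higher in myotubes (0.97, SE 0.12, adjusted p = 2.44e-06). The knockout was higher in myotubes (0.93, SE 0.12, adjusted p = 3.44e-06). In myoblasts its difference of 0.34 (adjusted p = 0.0262) was called in 5 of 12 alternatives and was lost without any 1 of control libraries A, B and C or knockout libraries B and C, with adjusted p from 0.0504 to 0.0872. The antisense gene Gm15943 overlaps an exon of Fbxo32, again with no record of strand use. Atrogin-1 acts on its targets as proteins, whereas the values here are of their RNA. Myod1 RNA was higher in knockout than in control myotubes (0.83, adjusted p = 5.63e-07), as was Eif3f RNA (0.60, adjusted p = 3.61e-05). In overexpressor against control myotubes Myod1 was higher by 0.30 (adjusted p = 0.013), a call lost without control library C or overexpressor library A (adjusted p = 0.0732 and 0.0845), and Eif3f gave -0.21 (adjusted p = 0.0806).

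Fbxo30 (ENSMUSG00000047648, chromosome 10, 11281330 to 11298052, plus strand), is the ligase known as MUSA1. Its level ran from 16.6 to 48.6 CPM over the 18 libraries, and all neighbouring groups in the order of the means overlapped. The highest value belonged to overexpressor myotube library C, with 48.6 CPM against 20.9 and 19.9 CPM in libraries A and B, so the overexpressor response of 0.37 (adjusted p = 0.275) became -0.13 (adjusted p = 0.521) without it. The one call in the fit of all libraries was a fall of Fbxo30 with differentiation in the knockout (-0.77, SE 0.28, adjusted p = 0.0282). That call was lost without knockout myoblast library A or B or knockout myotube library B or C (adjusted p from 0.0655 to 0.106), and without a filter on low counts (-0.78, adjusted p = 0.0659). Knockout myoblasts, at 30.8 to 35.6 CPM, did not overlap control myoblasts, at 20.4 to 23.3 CPM. That difference of 0.65 missed the threshold (SE 0.28, adjusted p = 0.068), and was called with only the compared groups (0.64, adjusted p = 3.17e-08) and with the DESeq2 Wald test (0.63, adjusted p = 0.0238). With only the compared groups, Fbxo30 was also lower in overexpressor than in knockout myoblasts (-0.56, adjusted p = 0.00157, against 0.117 in the fit of all libraries). The response of Fbxo30 in the knockout differed from that of the control by -0.96 (adjusted p = 0.0602). It was called with only the compared groups (-0.87, adjusted p = 0.00211), with the Wald test (-0.81, adjusted p = 0.041) and without knockout myotube library A (-1.21, adjusted p = 0.0256). In overexpressor against knockout myotubes Fbxo30 gave 0.58 (adjusted p = 0.0923). This was called with the Wald test (adjusted p = 0.0495) and without overexpressor library A or B or knockout library A (adjusted p = 0.0354, 0.0256 and 0.0345). Fbxo40, a muscle ligase that targets the insulin signalling protein Irs1, in contrast rose with differentiation in all 3 lines, by 5.46, 5.79 and 5.36 (adjusted p = 5.65e-13, 1.6e-14 and 2.42e-13), and was higher than in control myotubes by 2.32 in the overexpressor and 2.68 in the knockout (adjusted p = 1.19e-10 and 1.65e-11).

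Klf15 (ENSMUSG00000030087, chromosome 6, 90462576 to 90475238, plus strand), a glucocorticoid-induced factor that raises branched-chain amino acid catabolism and atrophy genes in muscle, was detected at more than 3 counts in control myotubes only. Those 3 libraries held 404, 353 and 387 counts, or 7.65, 8.08 and 6.98 CPM. The control myoblast libraries held 0, 0 and 2 counts, the overexpressor myoblasts 0, 2 and 2, the knockout myoblasts 0, 3 and 0, the overexpressor myotubes 0, 3 and 0, and the knockout myotubes 0 in all 3. Control myotubes therefore stood apart from every other library, and the other 5 groups were at the limit of detection. The ratio of control myotubes to control myoblasts was 566, with an exact 95% counting interval of 156 to 4680, and to overexpressor myotubes 550 (188 to 2670). Against knockout myotubes it was at least 417-fold, since 0 counts in that group allow 3 counts over the group, or 0.0181 CPM. The intervals cover counting error only, because reads were not marked by molecular identifiers and may repeat a molecule, and the values chose the gene, so no test is given. In the overexpressor, both stages were at the limit, and no fold with differentiation is given.

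As a sum, the 5 fibroblast markers (Pdgfra, Thy1, Col1a1, Dcn and Lum) were also highest in control myotubes, where 1 of the 5 was under 1 CPM. Their summed level was 5776 to 6835 CPM there, with none of the 5 at 0, against 319.3 to 495.4 CPM in overexpressor and 1366 to 1599 CPM in knockout myotubes, where Thy1 was at 0. In myoblasts it was 787.9 to 838.6 CPM in the control, with Thy1 and Lum at 0, 42.0 to 45.8 CPM in the overexpressor, with Lum at 0, and 388.0 to 612.8 CPM in the knockout, with Thy1 at 0. These sums do not show which cells held the RNA, or that fibroblasts were present. Their relation to the Klf15 values was not tested. Of the 5 adipocyte markers, the summed level was 27.8 to 32.8 CPM in control myotubes and 38.2 to 39.1 CPM in control myoblasts, with Adipoq and Plin1 at 0 in the former and Lep at 0 in the latter. In every group the mean of 4 of these 5 markers was under 1 CPM, so the sum came mostly from 1 gene.

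Ddit4l (ENSMUSG00000046818, chromosome 3, 137621612 to 137628333, plus strand), also called REDD2 and known as an inhibitor of mTORC1 signalling, was nearly absent from knockout myoblasts and highest in knockout myotubes. Myoblast libraries held 280, 334 and 270 counts in the control (5.24, 6.42 and 6.01 CPM), 105, 86 and 84 in the overexpressor (2.10, 1.86 and 1.94 CPM) and 3, 1 and 2 in the knockout. Myotube libraries held 332, 359 and 347 counts in the control (6.29, 8.22 and 6.26 CPM), 84, 100 and 85 in the overexpressor (1.25, 1.25 and 1.18 CPM) and 873, 777 and 772 in the knockout (14.9, 13.0 and 16.1 CPM). Control myoblasts and myotubes overlapped, and no other neighbouring groups in the order of the means did. Knockout myotubes stood 383-fold above knockout myoblasts (exact 95% counting interval 176 to 1040), and control myoblasts 154-fold above knockout myoblasts (70.7 to 422). The response in the overexpressor, which the choice of the gene did not use, was a fall of Ddit4l with differentiation (-0.68, SE 0.15, adjusted p = 7.91e-04), from 1.96 ± 0.122 to 1.23 ± 0.0395 CPM. Ddit4, the better known paralog, was lower in both edited lines than in the control at both stages: in myotubes by -1.26 in the overexpressor and -1.43 in the knockout (adjusted p = 4.21e-09 and 7.63e-10), and in myoblasts by -0.86 and -0.74 (adjusted p = 1.28e-06 and 5.1e-06).

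Upstream of the FoxO factors, 18 genes of insulin and IGF1 signalling, AMPK and FoxO turnover were all tested. In knockout myotubes 6 were higher and 9 lower than in control myotubes (31% of all genes called higher and 37% lower, median log2 fold change -0.29 against -0.07 over all genes). The number higher was 4 without control library A. In overexpressor myotubes 4 were higher and 4 lower (26.2% and 30.9% of all genes). Akt2, the main Akt isoform of insulin-stimulated glucose uptake in muscle, was higher than in control myotubes by 0.83 in the overexpressor and 1.38 in the knockout (adjusted p = 3.06e-07 and 3.45e-10). Pik3r1, the regulatory subunit of PI3 kinase, was lower by -1.38 and -1.87 (adjusted p = 4.51e-06 and 1.38e-07). With differentiation, 6 of the 18 were higher and 4 lower in the control (33.9% of all genes higher and 28.8% lower). There 2 were higher when libraries were scaled by their totals, 4 were higher without myoblast library C or myotube library A or C, and 6 were lower with only the compared groups. In the overexpressor 4 were higher and 8 lower (29.8% and 33% of all genes), and in the knockout 3 were higher and 11 lower (29.8% and 35.6%). Skp2, a ligase subunit that targets Foxo1, fell in all 3 lines, by -2.39, -1.26 and -1.77 (adjusted p = 7.46e-13, 4.11e-09 and 1.16e-10).

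Among 16 transcriptional targets of FoxO factors, calls went both ways in every comparison. In the control 7 were higher and 6 lower with differentiation (62.8% of all genes called, 33.9% higher and 28.8% lower), and in overexpressor against control myotubes 5 were higher and 7 lower (57.1% called, 26.2% higher and 30.9% lower). Depp1, a FoxO-induced autophagy regulator, rose by 5.96, 5.48 and 2.07 in the control, the overexpressor and the knockout (adjusted p = 6.31e-14, 9.43e-14 and 7.61e-09). Pdk4, the kinase that blocks pyruvate entry into mitochondria, fell with differentiation in each line, by -3.00, -1.07 and -0.76 (adjusted p = 1.14e-14, 5.54e-09 and 7.39e-07). Its fall was smaller than in the control by a tested difference of 1.94 in the overexpressor and 2.24 in the knockout (adjusted p = 1.08e-09 and 1.65e-10), so Pdk4 was higher in the myotubes of both edited lines than in those of the control (1.85 and 1.46).

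Of 31 proteasome subunits, 20 were higher and 1 lower with differentiation in the control (33.9% of all genes called higher and 28.8% lower), 26 higher and 0 lower in the overexpressor (29.8% and 33%), and 22 higher and 2 lower in the knockout (29.8% and 35.6%). The medians were 0.36, 0.38 and 0.36. With scaling by library totals the control gave 15 higher and 6 lower, and the knockout gave 5 lower. In the control the number lower was 0 without myoblast library A or myotube library C. In the knockout the number lower was 3 without myotube library A and 1 without myotube library C. In knockout against control myoblasts 17 were higher and 1 lower (26.4% and 26.6% of all genes, median 0.21 against 0.02 over all genes). The number lower was 0 without control library A or knockout library A. In overexpressor against control myoblasts 4 were higher and 7 lower (20.7% and 19.7% of all genes), with 4 lower without control library C or overexpressor library B. In knockout against control myotubes 18 were higher and 8 lower (31% and 37% of all genes), and the number lower was 3 with DESeq2 size factors. Psmc3, an ATPase subunit of the regulatory particle, rose by 1.27 with differentiation in both edited lines (adjusted p = 1.82e-11 and 5.22e-11). Of 22 autophagy genes, 15 were higher and 2 lower with differentiation in the control, 8 higher and 9 lower in the overexpressor, and 14 higher and 4 lower in the knockout, beside the same shares of all genes as for the proteasome. In the knockout the number lower was 6 with library totals, 1 without myotube library C, and 2 with DESeq2 size factors or without myoblast library B or C or myotube library B. In the control it was 1 without myotube library C. Sqstm1, the p62 cargo receptor of autophagy, was lower in overexpressor than in control myotubes by -1.84 (adjusted p = 5.95e-12), and Ctsl, a lysosomal protease, was lower in knockout than in control myotubes by -1.33 (adjusted p = 4.56e-13).

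Of 21 other ubiquitin ligase genes of muscle, 20 were matched and tested. With differentiation 9 were higher and 4 lower in the control (33.9% of all genes called higher and 28.8% lower), the same counts as in the overexpressor (29.8% and 33%), and 5 higher and 4 lower in the knockout (29.8% and 35.6%). In the knockout 8 were higher with DESeq2 size factors and 10 were lower with library totals, so the balance of higher and lower depends on the scaling. In the control 6 were lower with library totals. Trim72, a muscle ligase of membrane repair, was higher in knockout than in control myoblasts by 5.48 (adjusted p = 3.56e-11). Fbxl22, a sarcomeric F-box protein, was higher than in control myotubes by 4.03 in the overexpressor and 4.35 in the knockout (adjusted p = 1.18e-15 and 4.45e-16).

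Around Klf15, 14 of 16 genes of the glucocorticoid response and of Klf15 action were tested. In overexpressor against control myotubes 2 were higher and 9 lower (26.2% of all genes called higher and 30.9% lower), with 4 higher under DESeq2 size factors, and 4 higher and 6 lower without overexpressor library C. In knockout against control myotubes 5 were higher and 7 lower (31% and 37% of all genes), with 3 lower under DESeq2 size factors, 4 lower without knockout library A, and 3 higher without control library C or knockout library C. Nr3c1, the glucocorticoid receptor, was lower in myotubes of the overexpressor (-1.48, SE 0.24, adjusted p = 9.03e-05) and of the knockout (-1.89, SE 0.25, adjusted p = 7.67e-06) than of the control. Its means there were 33.1 ± 13.2, 24.9 ± 7.02 and 92.3 ± 8.46 CPM (SD, n = 3). Other genes of the list went both ways in overexpressor and knockout against control myotubes. Fkbp5 gave -0.18 and -0.28 (adjusted p = 0.0407 and 0.002), and Tsc22d3 gave 0.18 and -0.21 (adjusted p = 0.0836 and 0.0382). Dusp1 was higher by 1.78 and 1.83 (adjusted p = 1.74e-07 and 1.04e-07). Whether the response to glucocorticoid differed between the lines was not tested. Hsd11b1, which regenerates active glucocorticoid, rose with differentiation in all 3 lines, by 4.38, 5.21 and 1.55 (adjusted p = 1.74e-15, 1.12e-15 and 2.01e-10). Of 13 other Kruppel-like factors tested, 4 were higher and 8 lower in knockout than in control myotubes (31% and 37% of all genes, median -0.999 against -0.07 over all genes), and 2 were higher and 5 lower in the overexpressor (26.2% and 30.9%). The number higher there was 3 with DESeq2 size factors, and without control library C or overexpressor library A or B. Klf4, a factor also active in smooth muscle and epithelium, rose by 2.09 with differentiation in the control (adjusted p = 2.44e-13), and its response differed from that by -3.49 in the overexpressor and -2.09 in the knockout (adjusted p = 2.79e-13 and 1.44e-10). Around Ddit4l, 17 genes of mTORC1 and its brakes gave 6 higher and 7 lower in knockout against control myotubes (31% and 37% of all genes). Rragd, a Rag GTPase that recruits mTORC1 to the lysosome, was higher there by 2.32 (adjusted p = 1.65e-11) and Sesn3, a stress-induced brake, was lower by -2.15 (adjusted p = 2.62e-10).

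The genes whose log2 CPM was most like that of each member over the 18 libraries were sought among 10077 protein-coding genes by Pearson's r, as a description across libraries that share 6 groups. Trim63 was most like Erbb3, a neuregulin receptor (r = 0.997), and Klhl41, a sarcomeric protein (r = 0.997). Trim54 was much like Iffo1 (r = 0.998), and Trim55 was most like Stac3, a protein of excitation-contraction coupling (r = 0.989), and Tmod1, which caps thin filaments (r = 0.987). Foxo4 was most like the immunoproteasome subunit Psmb10 (r = 0.981) and Dhx32 (r = 0.977), and Foxo3 most like the adenylate kinase Ak3 (r = 0.976) and Cgrrf1 (r = 0.946). Klf15 was most like Paqr3 (r = 0.979) and the secreted carbonic anhydrase Car6 (r = 0.974), which held 88.2 ± 10.5 CPM in control myotubes and at most a mean of 0.133 CPM in any other group. The likeness was lower for Foxo1 (Nrbf2, r = 0.927), Fbxo32 (Dcun1d5, r = 0.926) and Ddit4l (Cpne2, r = 0.941), and for Fbxo30 it was 0.974 (Mbtd1).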

How the data were processed

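Polyadenylated RNA of 18 libraries was analysed from the table of raw counts per Ensembl gene that the authors deposited, with no normalization. Per the submitters' processing notes, the tools were STAR 2.7.9a, featureCounts, Subread 2.0.3, FastQC 0.11.7 and DESeq2 1.32.0 with genome build mm10. The annotation and the use of strand are not given in the sources used here. The authors' variance-stabilised table was not used. Symbols and coordinates are from GENCODE M21 (GRCm38), which matched 55190 of 55450 IDs.

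The test was that of edgeR 4.0.16 (R 4.3.3): TMM factors (0.895 to 1.08), filterByExpr by group, and robust quasi-likelihood tests in 1 fit of all 18 libraries with a coefficient per group (12 residual degrees of freedom). The 17912 genes kept held at least 99.97% of every library. P-values of 11 contrasts had Benjamini-Hochberg adjustment over all genes tested, with a threshold of 0.05. The fit was run on simulated counts with 92 genes changed 2-fold and 108 changed 4-fold, in overexpressor myoblasts alone. It recovered 90.2% and 96.3% of them and called 9 of 16078 unchanged genes. With so few genes changed, the simulation does not cover contrasts in which a large share of genes differ. CPM use TMM library sizes, and log2 CPM for likeness use a prior count of 2. A group at 0 was given a limit of 3 counts over its libraries.

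The members and gene lists were chosen with earlier results of these data known. Besides the members, the text names a fixed set of related genes, from each list the gene with the highest or lowest called change in a contrast (mean of at least 5 CPM in the higher group), and 2 like genes per member, of which 1 is named for some members. Some genes that this rule gave are not reported here. Little sign was seen that the replicate letters paired the libraries, though a check on 3 libraries per group cannot exclude it. Of 45 pairs of libraries with the same letter, 4 had deviations correlated above 0.1 (r from -0.358 to 0.264). Alternatives were DESeq2 1.42.0 size factors, library totals, no filter, the DESeq2 Wald test, a replicate block, only the compared groups, and leaving out each library.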

Additional observations from a re-analysis of the deposited data

Results flagged for a closer look

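The response to differentiation differed from that of the control line by a tested interaction (edgeR, adjusted p under 0.05) in these genes, in log2 units of edited line minus control. In the overexpressor the differences were -0.60 for Foxo3, 0.98 for Foxo4, 1.83 for Fbxo32, -1.47 for Trim54 and -0.97 for Trim55. In the knockout they were 0.85 for Foxo4, 0.59 for Fbxo32, -3.71 for Trim63, -2.99 for Trim54 and -1.52 for Trim55. The sets share their control libraries. The smaller MuRF responses came with higher myoblast levels of the same genes in the edited lines, and with higher summed markers of differentiated muscle there (483.7 to 770.7 CPM in the overexpressor and 9494 to 12110 CPM in the knockout, against 253.8 to 386.9 CPM in the control); the part of these in the differences was not tested.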

How the results depend on the processing

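The number of members called stayed within 1.5 times its value under every alternative, from 4 to 8 of 8 over the 11 comparisons. Leaving out 1 library, it ran from 4 to 7. Of 88 values of single genes, 82 kept their direction and call with DESeq2 size factors, 77 with library totals, 84 without a filter, 78 with the DESeq2 Wald test, 81 with only the compared groups and 587 of 624 when 1 library was left out. With the replicate block 87 of 88 were kept, and the call of Foxo4 in overexpressor against control myoblasts was lost (0.17, adjusted p = 0.0676). The direction reversed with DESeq2 size factors and with its Wald test for the knockout response difference of Foxo1 (0.0394 and 0.0376). With library totals it reversed for Foxo4 (-0.19), Fbxo30 (-0.0489) and the proteasome subunit Psmb3 (-0.0199) in control differentiation, for Fbxo32 in knockout differentiation (-0.042) and for the overexpressor response difference of Foxo1 (0.0038). With only the compared groups it reversed for Foxo4 in control differentiation (-0.0084). Leaving out 1 library turned the sign of 8 values, given here with the range over the libraries left out. They were the overexpressor response difference of Trim63 (-0.0029 without control myoblast A, to 0.35), Foxo4 in control differentiation (-0.0195 without control myotube A, to 0.112), Fbxo30 in overexpressor against control myoblasts (-0.0619 without overexpressor myoblast B, to 0.216) and Fbxo32 in knockout differentiation (-0.0205 without knockout myotube A, to 0.227). Without overexpressor myotube C the sign turned for Fbxo30 in overexpressor differentiation (-0.13, to 0.593), against control myotubes (-0.17, to 0.493) and in the response difference (-0.26, to 0.399). It turned for Fbxo32 in overexpressor against knockout myotubes without overexpressor myotube C or knockout myotube C (-0.0652 and -0.06, to 0.187). None of these 8 had passed the test. The cause was not tested. Scaling by library totals moved the median of all genes from 0.07 to -0.17 in control differentiation, where the higher share of calls went from 54.0% to 38.0%, and from -0.08 to -0.24 in knockout differentiation (45.5% to 34.0%). In overexpressor against control myotubes it moved from -0.04 to 0.11 (45.9% to 57.8%), and to 0.07 with DESeq2 size factors (55.1%). In knockout against control myotubes DESeq2 size factors moved it from -0.07 to 0.06 (45.6% to 53.3%). Small changes, such as those of Foxo1, are read against these shifts. Klf15 outside control myotubes and Ddit4l in knockout myoblasts are limited by depth, at 3 counts or fewer per library.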
